A study of Drosophila melanogaster with 8 samples.

Results

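The 8 genes described here, Vm26Aa, Vm26Ab, Vm26Ac, Vm32E, Vm34Ca, Vml, psd and dec-1, encode proteins of the vitelline membrane and the inner eggshell of Drosophila melanogaster. They were chosen by symbol, as listed vitelline membrane protein genes, and matched to the total RNA table through their RefSeq transcripts. They are 8 of the 18960 genes and transposons in that table, and all 8 are among the 8755 that passed the low-value filter (1 FPKM or more in 2 or more of the libraries). Dissected ovaries were sequenced as total RNA in 4 libraries: 1 from flies carrying egt17, 1 from flies carrying egt8, and 2 from Oregon-R wild type. The labels call both alleles null mutants of egt and the series names the gene boot, which was taken here to be Boot, a germline gene of the piRNA pathway. No age, and no genetic background of the alleles, is given in the sources used here.

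The vitelline membrane is the innermost layer of the fly eggshell. Somatic follicle cells secrete its proteins around the growing oocyte in mid-oogenesis, before the same cells switch to chorion proteins for the outer layers. Several of the small vitelline membrane proteins share a conserved hydrophobic domain, and the layer is hardened by crosslinks between its proteins.

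The libraries formed pairs in depth and in overall profile. Estimated depth was 6.15 M reads in egt17 and 6.32 M in wild type 1, against 15.9 M in egt8 and 16.6 M in wild type 2. Across the 8755 genes, log2 values correlated at 0.966 between egt17 and wild type 1 and at 0.948 between egt8 and wild type 2, against 0.901 between the wild types. Genes are not independent replicates in such a correlation. The labels name no batch. Pooled differences below are from both wild types, and within-pair differences are from the wild type of the same pair. Boot RNA stood at 40.6 in egt17 and 52.1 FPKM in egt8, against 88.65 and 89.7 in the wild types (limma adjusted p = 0.9999, both alleles against wild type). Labels do not say that libraries came from separate flies, so every p-value here rests on a spread between libraries that may be technical only.

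The main structural genes Vm26Aa and Vm34Ca had the highest levels of the group in each library. Vm26Aa, which encodes a small protein of the membrane body, stood at 919.9 in egt17 and 7033 FPKM in egt8, against 3939 FPKM in wild type 1 and 4167 FPKM in wild type 2. The wild types lay close together, with egt17 far below them and egt8 above both. Ranked by summed FPKM among all genes and transposons, Vm26Aa was 108th in egt17 and 2nd in egt8, against 23rd in wild type 1 and 5th in wild type 2. The sum takes in 2 transcript rows of Vm26Aa and 1 of Vm34Ca. By the highest row alone, Vm34Ca was above Vm26Aa in each library, at 4909 against 3725 FPKM in egt8. Vm34Ca, another small structural protein gene, stood at 654 in egt17 and 4909 FPKM in egt8, against 3387 FPKM in wild type 1 and 3902 FPKM in wild type 2. Its order of libraries was that of Vm26Aa, with no overlap between either allele and the wild-type range. Vm26Ab encodes the sV23 protein, which is required for a stable eggshell. It stood at 296 in egt17 and 3266 FPKM in egt8, against 1123 FPKM in wild type 1 and 1668 FPKM in wild type 2. All 8 genes summed to 0.379% of the FPKM of the egt17 library and 3.12% of egt8, against 1.502% of wild type 1 and 2.19% of wild type 2. Of single genes, the ratio of egt8 over egt17 was 11.05 for Vm26Ab, 7.65 for Vm26Aa and 7.51 for Vm34Ca.

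**Figure D1:**
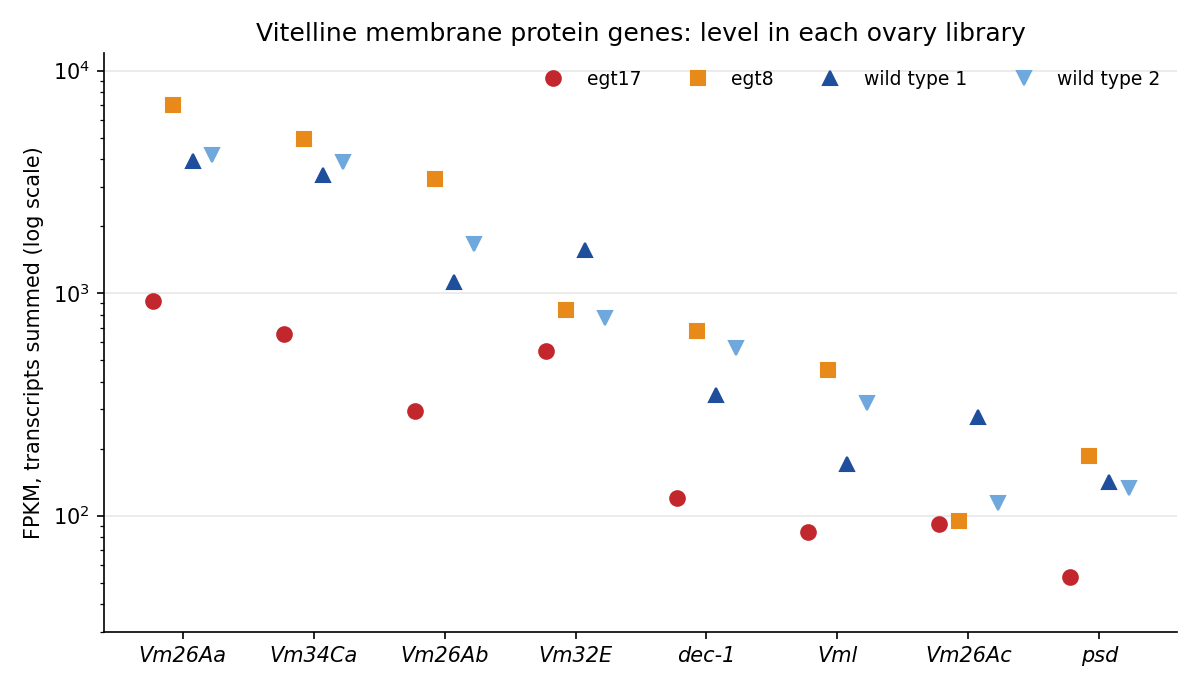
Level of each of the 8 vitelline membrane protein genes in the 4 ovary libraries, in FPKM with transcripts summed, on a log axis; each point is 1 library. The egt17 library is lowest for every gene, and egt8 is highest for every gene except Vm32E and Vm26Ac.

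Vml, psd and dec-1 were less abundant and also had egt17 lowest and egt8 highest. Vml encodes a vitelline membrane-like protein known as a substrate of the Pipe sulfotransferase in embryo patterning, and stood at 84.35 in egt17 and 449 FPKM in egt8, against 169.9 FPKM in wild type 1 and 321 FPKM in wild type 2. The gene psd (palisade) is needed to form the membrane and stood at 53.2 in egt17 and 185 FPKM in egt8, against 141 FPKM in wild type 1 and 133 FPKM in wild type 2. The gene dec-1 encodes secreted proproteins that are cleaved in the eggshell and are needed for its assembly. Its transcripts summed to 119.5 in egt17 and 678 FPKM in egt8, against 347 FPKM in wild type 1 and 566 FPKM in wild type 2. For each of the 3, egt17 lay below and egt8 above the range of the wild types, as for Vm26Aa, Vm34Ca and Vm26Ab, which makes 6 of 8 genes where 4.95% of tested genes did so. This holds although the wild types themselves were 0.91 apart on the log2 scale for Vml and 0.70 apart for dec-1.

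Vm32E and Vm26Ac departed from that order. Vm32E, a vitelline membrane gene known for expression late in membrane deposition, stood at 549 in egt17 and 839 FPKM in egt8, against 1565 FPKM in wild type 1 and 774 FPKM in wild type 2. The egt8 value thus lay between the wild types. Vm26Ac stood at 92.1 in egt17 and 94.9 FPKM in egt8, against 277 FPKM in wild type 1 and 114.5 FPKM in wild type 2. It was the only 1 of the 8 with both alleles below both wild types, a placing met by 11.6% of tested genes, and the alleles were nearly equal (ratio 1.03). These were also the only members whose wild types were at least 2-fold apart, as were 24.0% of tested genes, with log2 values lower in wild type 2 than in wild type 1 (-1.02 for Vm32E and -1.27 for Vm26Ac).

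Against the wild types, egt17 held less RNA of all 8 genes. Its value was below both wild types for 8 of 8 genes, where 26.5% of all 8755 tested genes met that condition. It was at least 2-fold below both wild types for 6 of 8 (all but Vm26Ac and Vm32E), against 1.39% of tested genes. The median log2 difference of egt17 minus wild type was -1.67 over the 8 genes and 0.07 over all tested genes. Single genes ranged from -2.47 ± 1.04 for Vm34Ca and -2.21 ± 0.87 for Vm26Ab to -0.95 ± 0.69 for Vm26Ac (SE from the fit, 1 library against 2). Over all genes limma called none of the 8 (adjusted p of 0.9995 for each), where 0.08% of tested genes did. At an unadjusted limma p under 0.05, 5 were lower (Vm26Ab, Vm34Ca, Vml, psd and dec-1), against 0.857% of tested genes. This fit has 1 residual degree of freedom and assumes that the lone egt17 and egt8 libraries vary as the wild types do.

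In egt8 most of the genes stood above the wild-type levels, with Vm32E between them and Vm26Ac below. The value was above both wild types for 6 of 8 genes, where 21.0% of tested genes met that condition, and Vm26Ac was below both, where 42.3% did. At least 2-fold above both were 0 of 8, against 2.51% of tested genes. The median log2 difference of egt8 minus wild type was 0.52 over the 8 genes and -0.15 over all tested genes, from 1.25 ± 0.87 for Vm26Ab to -0.90 ± 0.69 for Vm26Ac. Vm32E differed by -0.39 ± 0.83, with 0.12 against wild type 2 alone. Over all genes limma called none of them (adjusted p of 0.999 for each), where 0.0914% of tested genes did, and 0 of the 8 had an unadjusted p under 0.05, against 4.87% of tested genes.

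**Figure D2:**
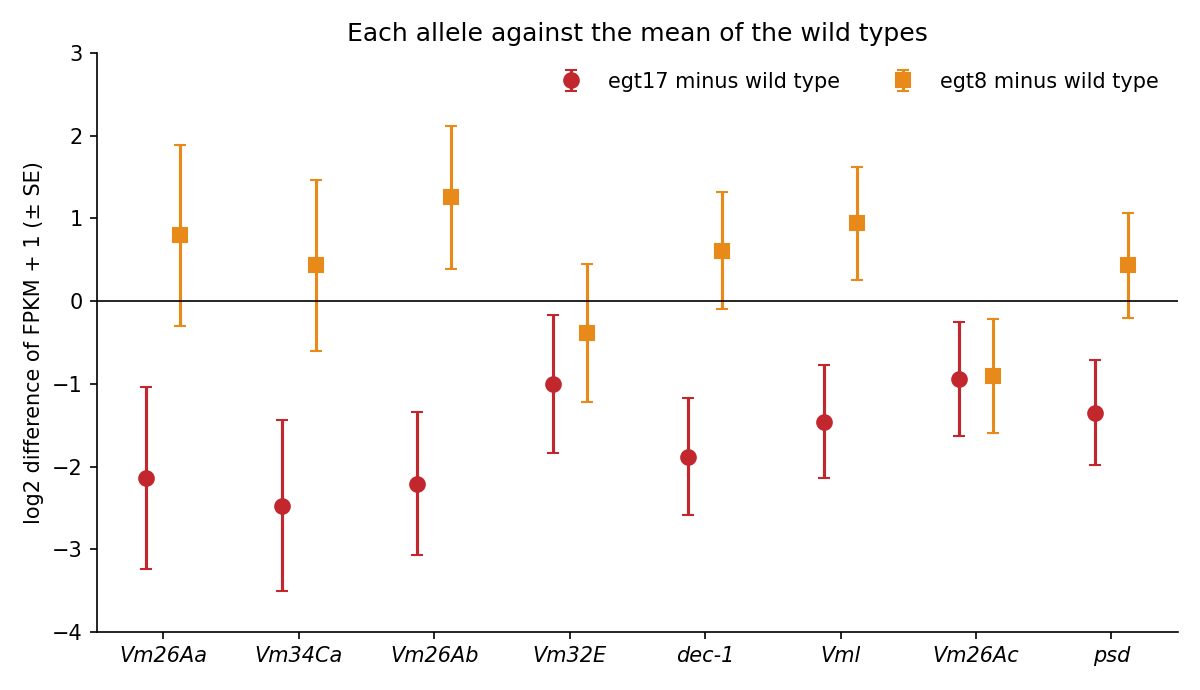
Log2 difference of each allele from the mean of the wild types for the 8 genes, on the log2(FPKM + 1) scale; bars are SE from the limma fit. All 8 egt17 points lie below 0, and 6 of the 8 egt8 points lie above 0.

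The difference between the alleles was tested directly, as egt8 minus egt17. All 8 genes had a positive difference, where 39.6% of tested genes did, and 5 were at least 4-fold higher in egt8 (Vm26Aa, Vm26Ab, Vm34Ca, Vml and dec-1), against 1.62% of tested genes. Vm26Ab differed by 3.46 ± 1.0, Vm26Aa by 2.93 ± 1.27 and Vm34Ca by 2.91 ± 1.20 on the log2 scale. Vml differed by 2.40 ± 0.79, dec-1 by 2.49 ± 0.82 and psd by 1.78 ± 0.73. Adjusted over all genes, limma called none of these (lowest adjusted p = 0.506), where 0.0% of tested genes did. At an unadjusted limma p under 0.05, 6 were higher, against 1.58% of tested genes. These p-values rest on the spread between the wild types, 1 from each library pair, and on the variance shared over genes, so they do not test the allele apart from the pair. Over all tested genes the median difference between the alleles was -0.24, and with libraries centred on the median of all genes each of the 8 kept its sign. Allele and library pair cannot be told apart in this comparison.

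Taking egt17 and egt8 as 2 replicates of a null genotype gave differences within their SE of 0 for Vm26Aa, Vm26Ab, Vm34Ca, Vml, psd and dec-1 in the fit without library pairs. These 6 differences were positive without egt17 and negative without egt8. For Vm26Ac the difference of the null libraries from wild type was -0.92 ± 0.50 and for Vm32E -0.70 ± 0.52. Vm26Ac differed by -0.29 without wild type 1 and -1.56 without wild type 2, and Vm32E by -0.19 and -1.21. Limma called none of the 8 in that comparison (adjusted p = 0.9999 for each), and 0 of the 8 had an unadjusted p under 0.05, against 1.9% of tested genes. With the library pair as a block the differences were the same and their SE smaller, at -1.02 ± 0.61 for Vm34Ca, -0.64 ± 0.40 for dec-1, -0.46 ± 0.41 for psd, -0.67 ± 0.64 for Vm26Aa and -0.92 ± 0.30 for Vm26Ac. Limma with that block called 0 of the 8 over all genes, where 0.148% of tested genes passed (lowest adjusted p = 0.328, for Vm26Ac). Vm26Ac alone had an unadjusted p under 0.05 there (0.0243), against 13.2% of tested genes.

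Within the library pairs egt17 was lower for the whole group. Relative to wild type 1, egt17 was at least 2-fold lower for 8 of 8 genes, where 2.9% of tested genes were. The log2 differences ran from -2.37 for Vm34Ca and -2.10 for Vm26Aa to -1.002 for Vml, and for Vm32E and Vm26Ac they were -1.51 and -1.58. Relative to wild type 2, egt8 was higher for 7 of 8 genes, where 37.3% of tested genes were, by 0.97 for Vm26Ab and 0.76 for Vm26Aa down to 0.12 for Vm32E. Vm26Ac was lower in egt8 than in wild type 2, by -0.27. With the pairs exchanged, egt17 was at least 2-fold below wild type 2 for 6 of 8 genes (10.7% of tested genes), and egt8 was above wild type 1 for 6 of 8 (41.3% of tested genes). These differences within single pairs are given as values, without a test.

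Gene length moved with the library pairs. Among the 977 tested genes with a gene span under 1000 bp, the median log2 difference was -1.07 between egt8 and egt17 and -0.98 between wild type 2 and wild type 1. Within the pairs it was 0.06 for egt17 minus wild type 1 and -0.0015 for egt8 minus wild type 2. Vm26Aa (745 bp), Vm26Ab (636 bp), Vm26Ac (627 bp), Vm32E (499 bp) and Vm34Ca (491 bp) are in that length class. Each of these genes had a positive egt8 minus egt17 difference, the opposite sign to the short-gene median. The values ran from 0.04 for Vm26Ac and 0.61 for Vm32E to 3.46 for Vm26Ab. For wild type 2 minus wild type 1, the differences of Vm32E (-1.015) and Vm26Ac (-1.269) were near the short-gene median. Those of Vm26Aa (0.08), Vm26Ab (0.57) and Vm34Ca (0.20) had the opposite sign to it. The part of gene length in any of these values was not tested. With the libraries scaled on the short genes, an alternative chosen after seeing the data, limma gave an adjusted p of 0.0179 for Vm34Ca in egt17 against wild type. In egt8 against egt17 it gave 0.000122 for Vm26Ab, 0.000879 for Vm26Aa and 0.000978 for Vm34Ca. Under this scaling 0.0571% of tested genes were called in each of these comparisons. Those calls rest on that scaling, which moves long genes as well, and on 1 residual degree of freedom.

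**Figure D3:**
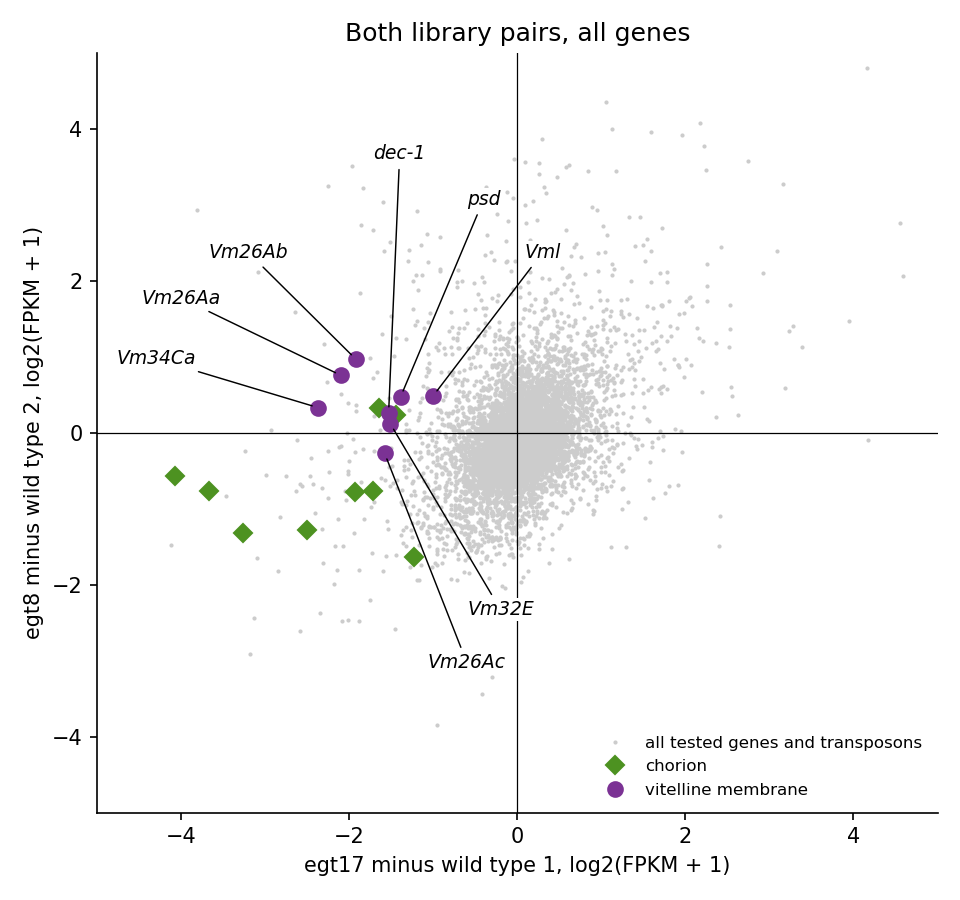
Log2 difference of egt17 from wild type 1 (x axis) and of egt8 from wild type 2 (y axis) for all tested genes, with the 8 vitelline membrane protein genes and 9 chorion genes marked; 8 tested genes lie outside the plotted range. The 8 vitelline membrane points lie left of 0, and 7 of them lie above 0 on the y axis.

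The proportions between the genes were compared within each library, from the highest transcript row of each gene. Vm34Ca and Vm26Aa kept close to each other, with Vm26Aa over Vm34Ca at 0.768 in egt17 and 0.759 in egt8, against 0.622 in wild type 1 and 0.567 in wild type 2. Vm26Aa over Vm26Ac was 5.45 in egt17 and 39.3 in egt8, against 7.59 in wild type 1 and 19.3 in wild type 2. Vm26Aa over Vm32E was 1.64 in egt17 and 8.54 in egt8, against 2.52 in wild type 1 and 5.46 in wild type 2. For both of these ratios the libraries of a pair were closer to each other than the alleles were. Vm32E and Vm26Ac kept nearer to each other, with Vm26Ac over Vm32E at 0.301 in egt17 and 0.218 in egt8, against 0.332 in wild type 1 and 0.283 in wild type 2.

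**Figure D4:**
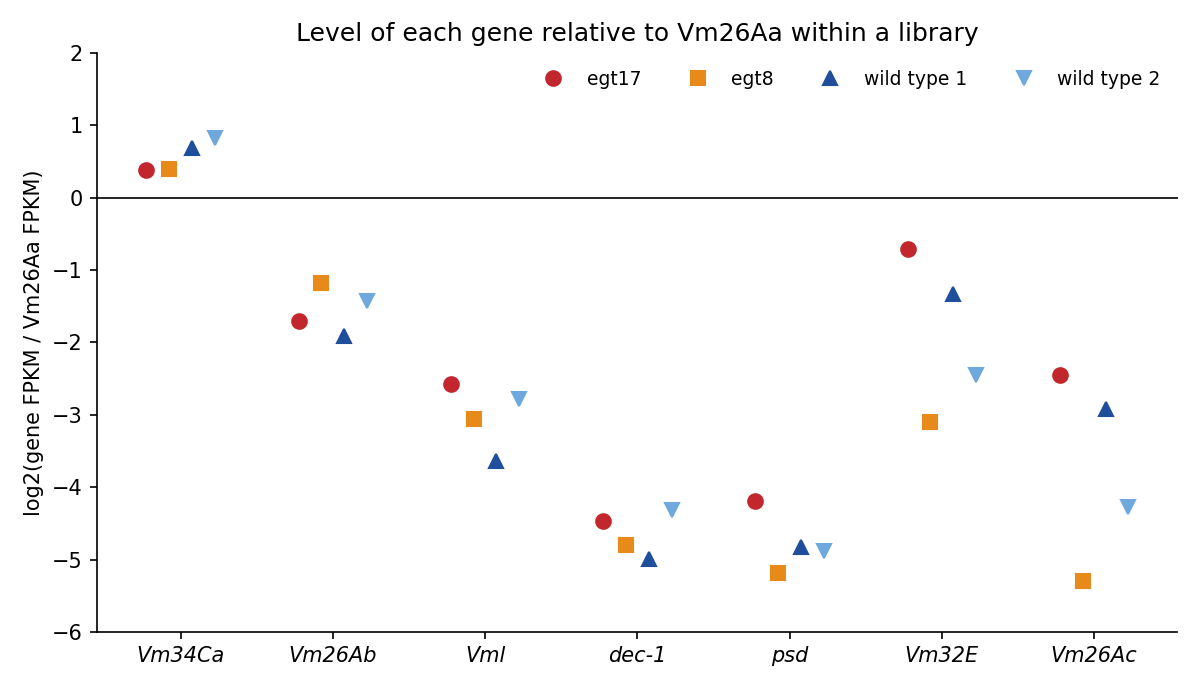
Level of 7 of the genes relative to Vm26Aa within each library, as log2 of the ratio of FPKM from the highest transcript row of each gene. The points of Vm34Ca span 0.44, while those of Vm32E span 2.38 and those of Vm26Ac span 2.85 over the 4 libraries.

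The genes were also compared by profile over the 4 libraries. Likeness was measured as the root mean square difference of centred log2(FPKM + 1) values, where 0 means the same profile. It was 0.18 between Vm26Aa and Vm34Ca, 0.21 between Vml and dec-1, and 0.25 between Vm26Ac and Vm32E, with no clear gap to the next values of 0.27 between Vm26Aa and dec-1 and 0.27 between Vm26Aa and Vm26Ab. The most unlike were Vm26Ab and Vm26Ac, at 1.39, although they are neighbours on the chromosome. The gene psd lay nearest to the mean profile of the 8 genes, at 0.14, and Vm26Ac farthest, at 0.86.

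The genes Vm26Ab, Vm26Ac, Vm26Aa and psd lie side by side on chromosome arm 2L, from 5957004 to 5964951 (dm6), a span of 7948 bp. Vm26Ab (5957004 to 5957639) is followed after 365 bp by Vm26Ac (5958005 to 5958631), after a further 964 bp by Vm26Aa (5959596 to 5960340) and after 2746 bp by psd (5963087 to 5964951). The egt8 over egt17 ratio across this block was 11.05 for Vm26Ab, 1.03 for Vm26Ac, 7.65 for Vm26Aa and 3.48 for psd. The genes flanking the block were much lower: CG13998 stood at 3.44 in egt17 and 7.97 FPKM in egt8, against 5.74 and 4.55 in the wild types, and CG13992 stood at 17.5 in egt17 and 37.1 FPKM in egt8, against 18.4 and 16.4 in the wild types. Vm32E (11171167 to 11171665) and Vm34Ca (13411141 to 13411631) lie elsewhere on 2L, apart from the other members, and Vml (2275822 to 2277781) and dec-1 (7867161 to 7873222) on X.

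Counting choices touched some of these values. Vm26Aa, Vm26Ab, Vm32E and psd have 2 transcript rows each, and dec-1 has 6, so their sums may count shared reads more than once. The rows of a gene had similar values, with the row of higher mean over the other between 0.975 and 1.30 in every library for the 4 genes with 2 rows. For dec-1 the most abundant row (NM_167133) stood at 22.6 in egt17 and 133 FPKM in egt8, against 65.97 and 110.9 in the wild types, and the least abundant row (NM_001258640) at 14.6 in egt17 and 90.1 FPKM in egt8, against 45.3 and 77.4 in the wild types. The ratio of these rows was 1.55 in egt17 and 1.48 in egt8, against 1.46 and 1.43 in the wild types. Vm32E lies within the span of Ca-beta, which had at most 2.49 FPKM in any library. At its end dec-1 overlaps the antisense gene asRNA:CR43615, at 1.60 in egt17 and 16.04 FPKM in egt8, against 4.28 and 14.6 in the wild types, and without known strand use those reads cannot be told from dec-1 reads. The least covered transcript row, of psd in egt17 (NM_135130), rested on an estimated 295 reads at most, taking the gene span as its length.

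Other genes of the eggshell and yolk were set beside the group, from lists chosen with earlier results known. Over all tested genes, the pooled medians were 0.07 in egt17 and -0.15 in egt8, and those within the pairs were 0.0036 and -0.14. Limma called no member of these lists in either allele. All 9 chorion genes, which encode the outer eggshell, were lower in egt17 than in both wild types (26.5% of tested genes), and 7 of 9 were lower in egt8 than in both (42.3% of tested genes), against 1 of the 8 vitelline membrane genes. The difference between the lists was not tested. The pooled chorion medians were -2.14 in egt17 and -0.99 in egt8, against -1.67 and 0.52 for the vitelline membrane genes. The chorion medians within the pairs were -1.93 in egt17 and -0.77 in egt8, against -1.56 and 0.40 for the vitelline membrane genes. Cp15 stood at 1148 in egt17 and 2341 FPKM in egt8, against 10998 and 5867 in the wild types. The exceptions were Cp7Fb, at 72.0 in egt17 and 335 FPKM in egt8, against 228 and 268 in the wild types, and Cp7Fc, at 93.8 in egt17 and 359 FPKM in egt8, against 256 and 305 in the wild types. The 3 yolk protein genes and the yolk receptor gene yl had medians of -0.65 in egt17 and 0.78 in egt8 within the pairs, and of -0.64 and 0.53 pooled, the same signs as the vitelline membrane genes.

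Among 17 tested genes for other eggshell proteins and for enzymes of eggshell crosslinking and embryo patterning, 15 were below both wild types in egt17, against 26.5% of tested genes. In egt8, 7 were above both (21.0% of tested genes) and 7 below both (42.3% of tested genes). Within the pairs their median was -0.44 for egt17 and -0.17 for egt8, and pooled it was -0.92 and 0.19. Among the eggshell protein genes of the list, yellow-g stood at 48.65 in egt17 and 242 FPKM in egt8, against 274 and 358 in the wild types, and Femcoat at 51.7 in egt17 and 58.3 FPKM in egt8, against 279 and 122 in the wild types. The genes fs(1)N, fs(1)M3 and clos, whose products sit in the vitelline membrane and act in its crosslinking and in terminal patterning, are also on the list. For fs(1)N the level was 29.6 in egt17 and 88.1 FPKM in egt8, against 40.6 and 79.7 in the wild types. Cad99C encodes a cadherin of the follicle cell microvilli that face the membrane, and stood at 5.06 in egt17 and 20.7 FPKM in egt8, against 6.14 and 10.9 in the wild types.

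Of 16 tested genes of ecdysone signalling, a steroid pathway that times oogenesis, 3 were below both wild types in egt17, a share under the 26.5% of all tested genes, and 12 were above both in egt8, against 21.0%. Their medians were 0.14 in egt17 and 0.45 in egt8 within the pairs. Pooled, they were -0.32 and 0.91, so the sign in egt17 depends on which wild type is used. In egt17, 11 of the 16 were lower and 5 higher than the wild types pooled, where 3961 of 8755 tested genes were lower. Eip75B, an ecdysone-induced nuclear receptor gene and 1 of those 5, stood at 10.6 in egt17 and 23.8 FPKM in egt8, against 5.55 and 9.19 in the wild types. Eip74EF, among the lower, stood at 0.365 in egt17 and 5.17 FPKM in egt8, against 0.861 and 3.90 in the wild types. Markers of somatic follicle cells (7 tested of 9) had medians of 0.23 in egt17 and 0.52 in egt8 within the pairs and of -0.08 and 0.80 pooled, and summed to 59.8 in egt17 and 122 FPKM in egt8, against 46.0 and 72.8 in the wild types. Genes of follicle cell identity and mid-oogenesis (12 tested of 14 listed), which share some of those markers, had medians of 0.21 and 0.60 within the pairs and of -0.17 and 0.77 pooled. Germline markers (9 tested of 10 listed) had medians of 0.21 and 0.25 within the pairs and of -0.08 and 0.51 pooled. For these 3 lists too the sign in egt17 turned between the within-pair and the pooled values. Markers of the muscle sheath around the ovary (7 tested of 10) had medians of the same signs as the vitelline membrane genes. These were -0.92 in egt17 and 2.16 in egt8 within the pairs and -0.27 and 1.40 pooled. Single markers were mixed in egt17 against the pooled wild types, with 3 higher and 4 lower. Against wild type 1 alone, 1 was higher and 6 were lower, where 4323 of 8755 tested genes were lower. Only 1 of the 7 was below both wild types in egt17 (26.5% of tested genes), and 5 were above both in egt8 (21.0%). The muscle list summed to 184 in egt17 and 598 FPKM in egt8, against 321 and 243 in the wild types. Of 7 hemocyte markers 3 passed the filter (srp, Pxn and crq). The list, mostly crq, summed to 82.1 in egt17 and 96.9 FPKM in egt8, against 86.8 and 129.6 in the wild types. The marker crq stood at 76.5 in egt17 and 73.6 FPKM in egt8, against 76.7 and 103.7 in the wild types. For srp the level was 3.90 in egt17 and 15.6 FPKM in egt8, against 5.09 and 24.7 in the wild types. For Pxn it was 1.471 in egt17 and 6.555 FPKM in egt8, against 4.605 and 1.055 in the wild types. Among the hemocyte markers that did not pass, He was at 0 in every library. Hml stood at 0.0138 in egt17 and 0.593 FPKM in egt8, against 0.135 and 0.0307 in the wild types. Of 6 fat body markers 2 passed the filter, and the list, mostly Adh, summed to 240.3 in egt17 and 184 FPKM in egt8, against 302 and 196 in the wild types. Several markers of fat body, a tissue that also makes yolk proteins, did not pass the filter and were detected mainly in egt8. Lsp2 stood at 0.207 in egt17 and 6.88 FPKM in egt8, against 0.0639 and 0 in the wild types. Fbp2 was at 0 in egt17 and 3.10 FPKM in egt8, against 0.320 and 0 in the wild types, and Fbp1 was at 1.49 FPKM in egt8 and listed at 0 in the other 3 libraries. The 2 fat body markers that passed the filter did not share this. Adh stood at 240 in egt17 and 166.6 FPKM in egt8, against 301.5 and 190.7 in the wild types. For apolpp the level was 0.152 in egt17 and 5.73 FPKM in egt8, against 0.210 and 4.82 in the wild types. The part of these markers in the vitelline membrane values was not tested. In whole ovaries, fewer cells making a transcript and less RNA per cell cannot be told apart.

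**Figure D5:**
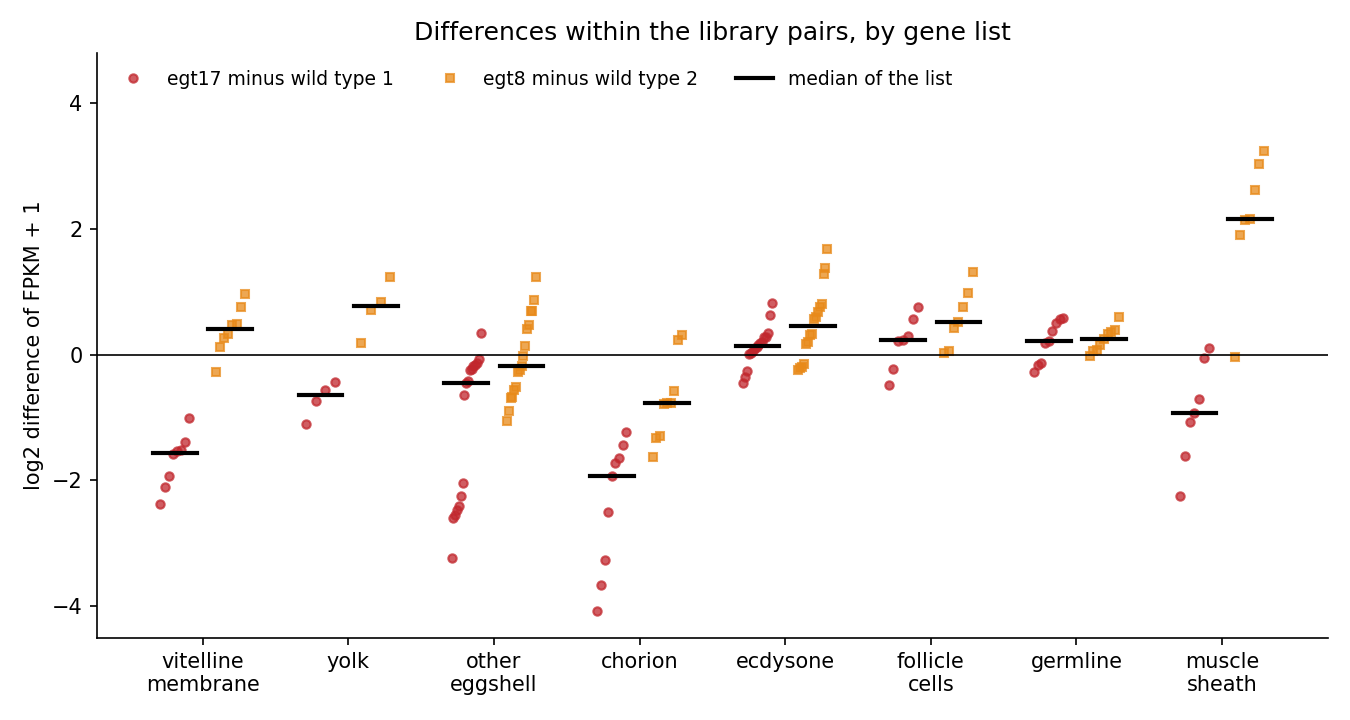
Log2 difference within the library pairs, egt17 minus wild type 1 and egt8 minus wild type 2, for the tested members of 8 gene lists; black bars are list medians. The vitelline membrane median is -1.56 in egt17 and 0.40 in egt8, and the chorion median is -1.93 in egt17 and -0.77 in egt8.

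The genes whose profile over the 4 libraries was most like the mean of the 8 were sought among 6312 others with a mean of at least 10 FPKM. Cp7Fb, at a root mean square difference of 0.090, and Cp7Fc, at 0.102, came first, where the median over those genes was 0.919. They were followed by CG9747 (0.255), Obp19c (0.264), CG14187 (0.288), GrlHz (0.335), Ir7c (0.338), hts (0.350), CG14834 (0.357) and Pld (0.361). Obp19c stood at 37.7 in egt17 and 207 FPKM in egt8, against 157 and 208 in the wild types. Ir7c lies 1171 bp from dec-1 on X and stood at 5.29 in egt17 and 15.1 FPKM in egt8, against 15.0 and 21.65 in the wild types. With 4 libraries such likeness is a description and was not tested.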

How the data were processed

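The deposited table gives FPKM plus 1 for 35502 rows in 4 total RNA libraries. Its lowest value in each library was exactly 1, and 1 was subtracted. Bowtie2 2.2.4 and the build dm6 appear, without a role, per the submitters' processing notes. How reads were counted, and whether by strand, is not given in the sources used here. Of 35327 transcript rows, 32986 matched a gene of the RefSeq Release 6 table, and rows of a gene were summed. The gene dec-1 was matched through a synonym. Depth was estimated from the step of low values; 39.98% to 45.2% of those checked came out whole within 0.02 reads, so depths are approximate.

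Tests were run in limma 3.58.1 (R 4.3.3) on log2(FPKM + 1) with a variance trend, two-sided, with Benjamini-Hochberg adjustment over 8755 genes at 0.05. Null against wild type had 2 residual degrees of freedom, and the fit with wild type, egt17 and egt8 as separate groups had 1. Fold differences on this scale are understated for low genes. Alternatives covered the pseudocount, filter, trend, scaling, transcript choice, the library pair as a term and each library left out. All 8 members were to be named, with list members as examples and the 10 most similar genes. Members, lists and tests were chosen with earlier results of these data known. Small RNA files were not used. Python 3.11.15, numpy 2.4.6, pandas 2.3.3 and matplotlib 3.10.9 were used for tables and figures.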

Additional observations from a re-analysis of the deposited data

Results flagged for a closer look

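For 6 of the 8 genes egt17 lay below and egt8 above both wild types, so that the alleles were placed on opposite sides. In none of them was egt8 at least 2-fold above both wild types, as it was in 2.51% of tested genes. The egt8 minus wild type difference was smaller than its SE for Vm26Aa, Vm34Ca, psd and dec-1, and larger for Vm26Ab and Vml. The log2 difference of egt8 minus egt17 was 2.93 for Vm26Aa, 3.46 for Vm26Ab, 2.91 for Vm34Ca, 2.40 for Vml, 1.78 for psd and 2.49 for dec-1. Of all 8755 tested genes, 4.95% showed the same opposite placing. The limma test of the difference between the alleles gave adjusted p from 0.506 to 0.690 for these genes, so it did not pass over all genes. Each allele is 1 library and lies in another library pair, so allele and pair cannot be told apart.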

How the results depend on the processing

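Across the alternatives, 347 of 360 values for single vitelline membrane genes kept their direction and, where a test was run, their side of the threshold. Of the 360 values, 312 had a test. Some alternatives could not change the log2 difference: the filter, the variance trend and leaving out a library outside the comparison. Such values add to the count by design. With both alleles as 1 group, leaving out a library turned the sign of 6 genes: the log2 differences without egt8 and without egt17 were -2.14 and 0.80 for Vm26Aa, -2.21 and 1.25 for Vm26Ab, -2.47 and 0.43 for Vm34Ca, -1.46 and 0.94 for Vml, -1.35 and 0.43 for psd, and -1.88 and 0.61 for dec-1. Without wild type 2 it was 0.20 for Vml. In egt8 against wild type, Vm32E was 0.12 without wild type 1, -0.90 without wild type 2 and 0.11 with scaling on genes under 1000 bp, against -0.39 with all libraries unscaled. That scaling, added after seeing the data, was the only alternative run under which a vitelline membrane gene passed: Vm34Ca in egt17 against wild type, and Vm26Aa, Vm26Ab and Vm34Ca between the alleles. Over all genes, the count for both alleles as 1 group was 0 with all libraries, between 7 and 12 when a library was left out, and 13 with the library pair as a replicate block, which called none of the 8 (lowest adjusted p = 0.328, for Vm26Ac). For egt17 the 7 calls became 3 with a pseudocount of 0.1, 4 at a filter of 5 FPKM, 4 with median scaling and 0 with no filter. For egt8 the 8 calls became 0 with no filter. For egt8 against egt17 the count was 0, and 5 with scaling on genes under 1000 bp. The cause was not tested. Without a wild-type library the fits of single alleles have no residual degrees of freedom and gave values only. Depth limited psd in egt17 most, with an estimated 295 reads at most behind a transcript row.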
